A study of Mus musculus with 9 samples.

Results

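Polycomb, trithorax and histone modifier genes were measured in 3 related lines of cultured mouse stem cells. The 49 genes were taken by symbol from a list of the Polycomb repressive complexes PRC1 and PRC2, the histone methyltransferases, the demethylases and the deacetylases, out of 54532 genes in the count table. All 49 were found, and all 49 passed the filter on low counts that left 16178 genes for testing. RNA was sequenced from 9 libraries, 3 per cell type, all from cells of the strain Sv129 x GOF/GFP F1. ABSC were AFSC moved into Activin A and BMP4 and are labelled trophoblast stem cell-like (passage 25 to 30). ALSC were AFSC moved into a medium labelled AL, read here as Activin A and leukemia inhibitory factor (LIF), and are labelled only as a stem cell (passage 20 to 25). AFSC came from blastocyst outgrowths kept in Activin A with bFGF and are labelled epiblast stem cell-like (passage 15 to 20). All 3 shared a serum-free basic medium with N2 and B27, and Activin A. Passage and cell type cannot be told apart. The protocol gives the Activin A and LIF recipe under the abbreviation of the other medium, and it names a further RNA kit for ALSC. The labels do not say whether the 3 libraries of a cell type came from separate cultures, so p-values measure the spread between these libraries, which may be technical.

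PRC2 places methyl groups on lysine 27 of histone H3, with Ezh2 or Ezh1 as the enzyme and Eed and Suz12 as the core subunits. PRC1 adds ubiquitin to histone H2A through Ring1 or Rnf2, and its Pcgf, Cbx and Phc partners set which form of the complex is made. Trithorax-group enzymes of the Kmt2 and Setd1 families methylate lysine 4 of H3 at active promoters and enhancers, and in pluripotent cells many promoters of developmental genes carry both kinds of mark. The tests below concern the messenger RNA of these enzymes, not the marks.

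Of the 49 genes, 10 changed in at least 1 of the 3 comparisons (20.4%, against 17.0% of all genes tested) and 39 in none. With the replicate number of the libraries as a block the count was 26 (53.1%, against 41.6%) with 23 in none, and without the 3 libraries numbered 1 it was 29 (59.2%, against 48.0%). The largest change was in Mllt10, which encodes AF10, a cofactor of the H3 lysine 79 methyltransferase Dot1l. Its messenger RNA in ALSC was 0.284 times that of AFSC, and in ABSC it was 5.01 times that of ALSC. The PRC2 accessory gene Phf19 and the PRC1 gene Bmi1 separated ALSC from ABSC with opposite signs. The PRC2 core gene Suz12 was higher in both ABSC and ALSC than in AFSC, and the PRC1 gene Phc1 was lower in both. These 2 comparisons share the 3 AFSC libraries. In bulk samples, fewer cells that express a gene and less of its RNA per cell cannot be told apart.

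RefSeq promoter sequences (GRCm38.p6, 250 bases before to 50 after a start) were found for 38 of the 49 genes. Those of Mllt10, Bmi1 and Phf19, which had the largest called changes of ABSC against ALSC, and of Suz12 are shown so that the sequence at their starts can be compared. Mllt10 had 3 RefSeq starts, of which the first and the most downstream are printed, all on the plus strand of chromosome 2. The downstream one of these contains 43 CG dinucleotides, more than 97.4% of 32851 promoters, and the first contains 7, which is also the median of all promoters. The Bmi1 promoter (chr2:18676768-18677067, plus strand) contains 23. In the promoters of Phf19 (chr2:34913927-34914226, minus strand, 38 CG) and Suz12 (chr11:79992856-79993155, plus strand, 41 CG) the capitals mark a match to the E2F motif TTTCCCGC, read on both strands.
Mllt10, first start, chr2:18054987-18055286: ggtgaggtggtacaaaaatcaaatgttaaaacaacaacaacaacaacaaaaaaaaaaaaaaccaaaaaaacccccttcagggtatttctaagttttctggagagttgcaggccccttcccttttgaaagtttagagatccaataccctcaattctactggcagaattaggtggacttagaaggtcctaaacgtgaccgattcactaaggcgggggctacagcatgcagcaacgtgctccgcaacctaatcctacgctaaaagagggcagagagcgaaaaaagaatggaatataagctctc
Mllt10, downstream start, chr2:18064335-18064634: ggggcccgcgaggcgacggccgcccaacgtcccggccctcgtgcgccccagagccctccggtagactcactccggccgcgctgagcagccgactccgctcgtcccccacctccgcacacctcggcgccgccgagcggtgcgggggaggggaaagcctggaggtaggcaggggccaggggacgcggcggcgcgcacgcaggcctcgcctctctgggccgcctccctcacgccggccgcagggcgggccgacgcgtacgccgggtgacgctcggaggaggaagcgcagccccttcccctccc
Bmi1: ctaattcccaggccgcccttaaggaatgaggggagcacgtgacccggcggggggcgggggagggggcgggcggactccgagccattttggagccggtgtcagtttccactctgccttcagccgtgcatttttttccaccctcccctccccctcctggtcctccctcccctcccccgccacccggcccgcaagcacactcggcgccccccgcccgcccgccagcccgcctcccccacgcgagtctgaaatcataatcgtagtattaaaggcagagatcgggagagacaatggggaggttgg
Phf19: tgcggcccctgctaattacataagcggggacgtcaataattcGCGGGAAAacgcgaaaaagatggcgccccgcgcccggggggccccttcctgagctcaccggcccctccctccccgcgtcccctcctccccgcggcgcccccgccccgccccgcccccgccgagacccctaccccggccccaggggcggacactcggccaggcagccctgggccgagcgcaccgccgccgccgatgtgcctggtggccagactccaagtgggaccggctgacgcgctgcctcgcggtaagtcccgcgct
Suz12: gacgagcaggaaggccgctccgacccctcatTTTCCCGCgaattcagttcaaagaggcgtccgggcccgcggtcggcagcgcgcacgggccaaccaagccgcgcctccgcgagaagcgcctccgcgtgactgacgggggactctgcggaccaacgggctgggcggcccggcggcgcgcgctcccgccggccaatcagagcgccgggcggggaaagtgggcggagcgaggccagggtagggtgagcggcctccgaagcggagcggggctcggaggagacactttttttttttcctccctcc
The E2F motif was present in a promoter of 2 of the 38 genes (5.26%), Phf19 and Suz12, and in 1.07% of all promoters. The STAT motif TTCNNNGAA was present in a promoter of 4 of the 38 genes (10.5%), Hdac7, Kmt2d, Pcgf6 and Phc1, and in 8.30% of all promoters. Some genes have several starts, so a share of genes and a share of promoters are not on the same scale. None of the printed sequences holds the STAT motif, so the motifs did not overlap in them. A match is a description of the letters, not evidence of a bound site.

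The libraries held 18978651 to 21578737 counts each, and 3 counts in a library correspond to 0.139 to 0.158 CPM (library-scaled counts), a floor that covers counting error only. CPM were computed with the library scaling of the trimmed mean of M-values (TMM). Rose and fell are written only of genes whose p-value in edgeR's quasi-likelihood F test stayed under 0.05 after Benjamini-Hochberg adjustment across the 16178 genes. The libraries numbered 1 stood apart from those numbered 2 and 3 in every cell type. Of the 49 genes, 26 differed between number 1 and the others (14 higher, 12 lower) against 34.7% of all genes tested, and Ezh1 (log2 difference 0.88) and Setd1a (-0.46) were the furthest apart in each direction. The tests were therefore also run with the number as a block, and without the 3 libraries numbered 1. Below, the unblocked test means edgeR's test of all 9 libraries without the block. The cells were checked against marker genes. Summed epiblast markers reached 3093 to 3451 CPM in ABSC, 3113 to 3412 CPM in ALSC and 3666 to 3790 CPM in AFSC. Dnmt3b and Pou5f1 made up most of it. Fgf5 averaged 16.3, 147 and 189 CPM in ABSC, ALSC and AFSC, and fell in ABSC against AFSC (edgeR adjusted p = 1.25e-06). In the unblocked test against AFSC, Sox2 and Pou3f1 fell in ABSC and ALSC and Nanog rose in both. Pou5f1 rose in ABSC and fell in ALSC, and Otx2 and Dnmt3b fell in ABSC. Leaving out 1 library kept Pou5f1 in 1 of 9 fits each, Nanog in ABSC in 3 and Dnmt3b in 4. Summed trophoblast stem cell markers reached 297 to 450, 237 to 359 and 287 to 364 CPM in ABSC, ALSC and AFSC, mostly from Eomes, Esrrb and Krt8. Of the defining ones, Cdx2 had 0.834, 6.43 and 6.06 CPM in ABSC, at most 0.153 CPM in ALSC and at most 0.235 CPM in AFSC, with ABSC 1 far below the other ABSC libraries. It rose in ABSC against AFSC and against ALSC (edgeR adjusted p = 0.00839 and 0.00615, each in all 9 fits leaving out 1 library, the first lost with no filter on low counts). With 0 to 5 counts in each ALSC and AFSC library, Cdx2 passed that filter only through ABSC. Its calls are therefore not independent of the filter. Krt8 rose in both comparisons (edgeR adjusted p = 0.012 and 0.000185, in 6 and 9 of 9 fits). Tead4 did too (adjusted p = 0.0476 and 0.0286, in 1 and 5 of 9 fits, and both lost in a fit of the 2 groups alone). Eomes and Esrrb did not pass in either. Tfap2c averaged 8.63, 18.7 and 3.78 CPM in ABSC, ALSC and AFSC, highest in ALSC. It rose in ALSC against AFSC (edgeR adjusted p = 0.0192, in 5 of 9 fits). It did not pass in ABSC against AFSC or against ALSC (adjusted p = 0.185 and 0.143), and with the block it fell in ABSC against ALSC (adjusted p = 0.0247). Gata3 averaged 0.749, 0.170 and 0.227 CPM in ABSC, ALSC and AFSC and was not tested. Elf5 was near or below the floor in all 3 cell types and below it in every ABSC library, at 0 to 0.0505 CPM in ABSC, 0 to 0.305 CPM in ALSC and 0.154 to 0.328 CPM in AFSC.

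Per kilobase of gene length, the scale on which genes can be set side by side, the members differed widely in level. Averaged over the 9 libraries, Hdac1, a deacetylase of several corepressor complexes, stood at 108 CPM per kb and Phc1 at 99.6 CPM per kb. Next came Wdr5, the shared scaffold of the lysine 4 methyltransferases, at 57.0 CPM per kb. Suz12 (50.5), Hdac2 (48.6) and the lysine 4 demethylase Kdm1a (48.5) followed, and Hdac2 and Kdm1a did not differ beyond the spread of their libraries. At the other end Cbx8, a chromobox reader of PRC1, averaged 0.120 CPM per kb and stayed below 1 CPM in every library. In all, 45 of the 49 genes exceeded 10 CPM in every library, and 21 exceeded 100 CPM.

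**Figure D1:**
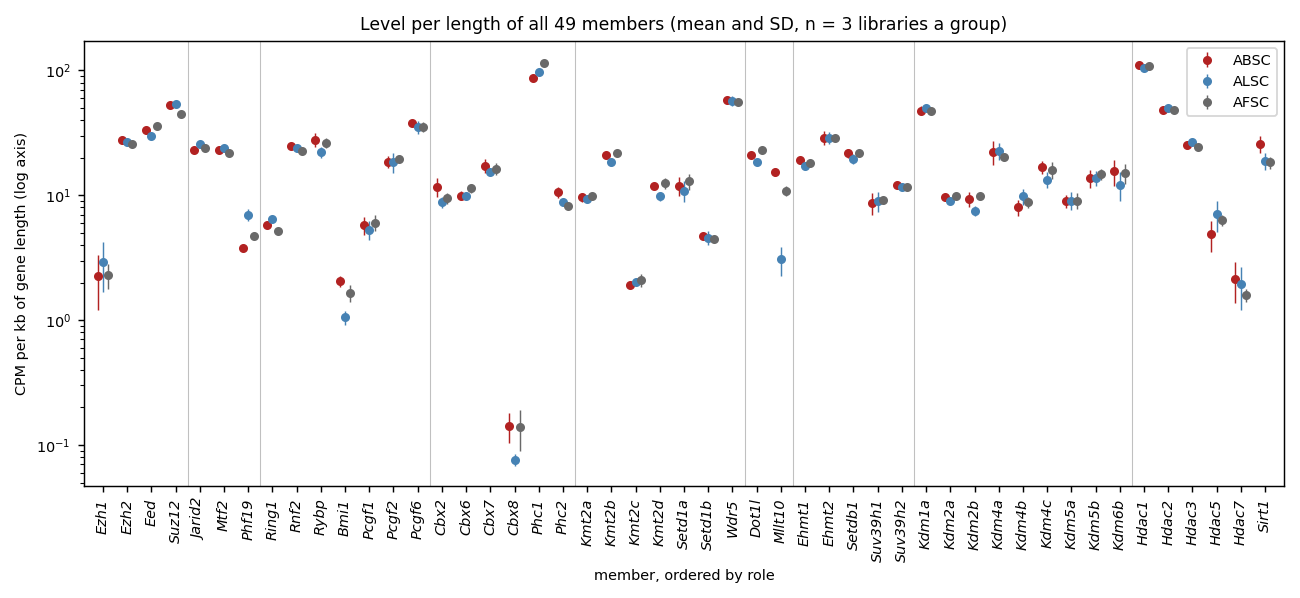
Level of each of the 49 genes per kilobase of gene length (CPM per kb, log axis) in ABSC, ALSC and AFSC, with points for the mean and bars for the SD of 3 libraries, and grey lines between roles. Hdac1 and Phc1 lie highest, Cbx8 lowest, and the 3 cell types lie close together for most genes, with Mllt10, Bmi1, Cbx8 and Phf19 the furthest apart.

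Within families the order of levels was the same in the 3 cell types for the enzymes of PRC2. Ezh2 stood at 27.7 ± 1.99, 26.7 ± 0.870 and 25.7 ± 0.937 CPM per kb in ABSC, ALSC and AFSC (SD, n = 3 each), against 2.28 ± 1.06, 2.94 ± 1.27 and 2.29 ± 0.525 CPM per kb for Ezh1. Ezh1 was thus 7.66%, 9.83% and 8.21% of the 2 enzymes' summed level. Among the PRC1 ring genes, Rnf2 averaged 23.7 CPM per kb and Ring1 5.78 CPM per kb. Among the Pcgf genes, which define the forms of PRC1, Pcgf6 averaged 36.2, Pcgf2 18.9, Pcgf1 5.68 and Bmi1 (Pcgf4) 1.59 CPM per kb. Among the chromobox genes, Cbx7, the main chromobox of PRC1 in mouse embryonic stem cells, averaged 16.4 CPM per kb. Cbx6 had 9.95 ± 0.777, 9.90 ± 0.212 and 11.4 ± 0.999 CPM per kb in ABSC, ALSC and AFSC, and Cbx2 had 11.7 ± 1.96, 8.81 ± 0.929 and 9.56 ± 0.969 CPM per kb (SD, n = 3 each), so that Cbx6 was the higher on average in ALSC and AFSC and Cbx2 in ABSC. The Ezh1 share and the shares of Suv39h1 with Suv39h2 and of Kdm4a with Kdm4b and Kdm4c were compared between cell types. None of the 9 comparisons of these 3 shares passed an exact 2-sided permutation test, whose smallest possible p with 3 against 3 libraries is 0.1 (adjusted p from 0.75 to 0.80 over the 9). The largest difference was in Kdm4a, with 49.4% ± 0.501 in ALSC and 45.1% ± 2.29 in AFSC (SD, n = 3 each, exact permutation p = 0.1).

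In ABSC against AFSC, 3 of the 49 genes changed (6.12%), against a background of 7.98% of all genes tested. Suz12 and Phc2 rose (2 of 49, background 3.98%) and Phc1 fell (1 of 49, background 4.0%). With the replicate block the count was 9 against a background of 19.4%, with 5 up (9.58%) and 4 down (9.78%), the additions being Cbx2, Cbx6, Hdac5, Mllt10, Phf19 and Sirt1. Without the libraries numbered 1 it was 14, against 28.5%, and these included Ezh2, Kdm2b, Kdm5b, Kmt2d and Rnf2, which the block did not call. In ALSC against AFSC, 8 of 49 changed (16.3%), against 7.04%. Suz12 and Phf19 rose (2 of 49, background 3.54%), and Eed, Phc1, Kmt2d, Dot1l, Mllt10 and Kdm2b fell (6 of 49, background 3.5%). The block gave 17 against 22.2%, with 3 up and 14 down (background 11.1% in each direction), adding Bmi1, Cbx6, Kdm4c, Kdm6b, Kmt2b, Ring1, Rybp, Setd1a and Setdb1. Without the libraries numbered 1 it was 16, against 25.4%, and included Kdm2a. In ABSC against ALSC, 4 of 49 changed (8.16%), against 11.0%. Bmi1, Dot1l and Mllt10 rose (3 of 49, background 5.41%) and Phf19 fell (1 of 49, background 5.56%). The block gave 22 against 28.5%, with 16 up (14.2%) and 6 down (14.3%), adding Cbx2, Cbx7, Eed, Ehmt1, Ezh1, Hdac5, Jarid2, Kdm2b, Kdm4b, Kdm4c, Kdm6b, Kmt2b, Kmt2d, Phc1, Phc2, Rybp, Setdb1 and Sirt1. Without the libraries numbered 1 the count was also 22, against 32.2%, and included Kdm1a and Kdm2a. When the 3 cell types were tested jointly, 9 of 49 genes passed, against 14.8% of all genes tested. The joint test passed 23 with the block, against 37.0%, and 28 without the libraries numbered 1, against 43.9%.

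The changes were small in most members. The median log2 fold change of the 49 genes was 0.01 in ABSC against AFSC, -0.04 in ALSC against AFSC and 0.05 in ABSC against ALSC, beside -0.00, 0.00 and -0.01 over all genes tested. The median size of the change was 0.08, 0.14 and 0.14 for the 49 genes and 0.16, 0.18 and 0.20 for all genes. Mllt10 alone reached 2-fold, in ALSC against AFSC and in ABSC against ALSC. The 3 libraries of one group lay wholly above or below the other 3 for 10 of 49 genes in ABSC against AFSC, where 27.4% of all genes did so. This held for 18 genes in ALSC against AFSC (28.5% of all genes) and for 17 in ABSC against ALSC (28.9%).

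**Figure D2:**
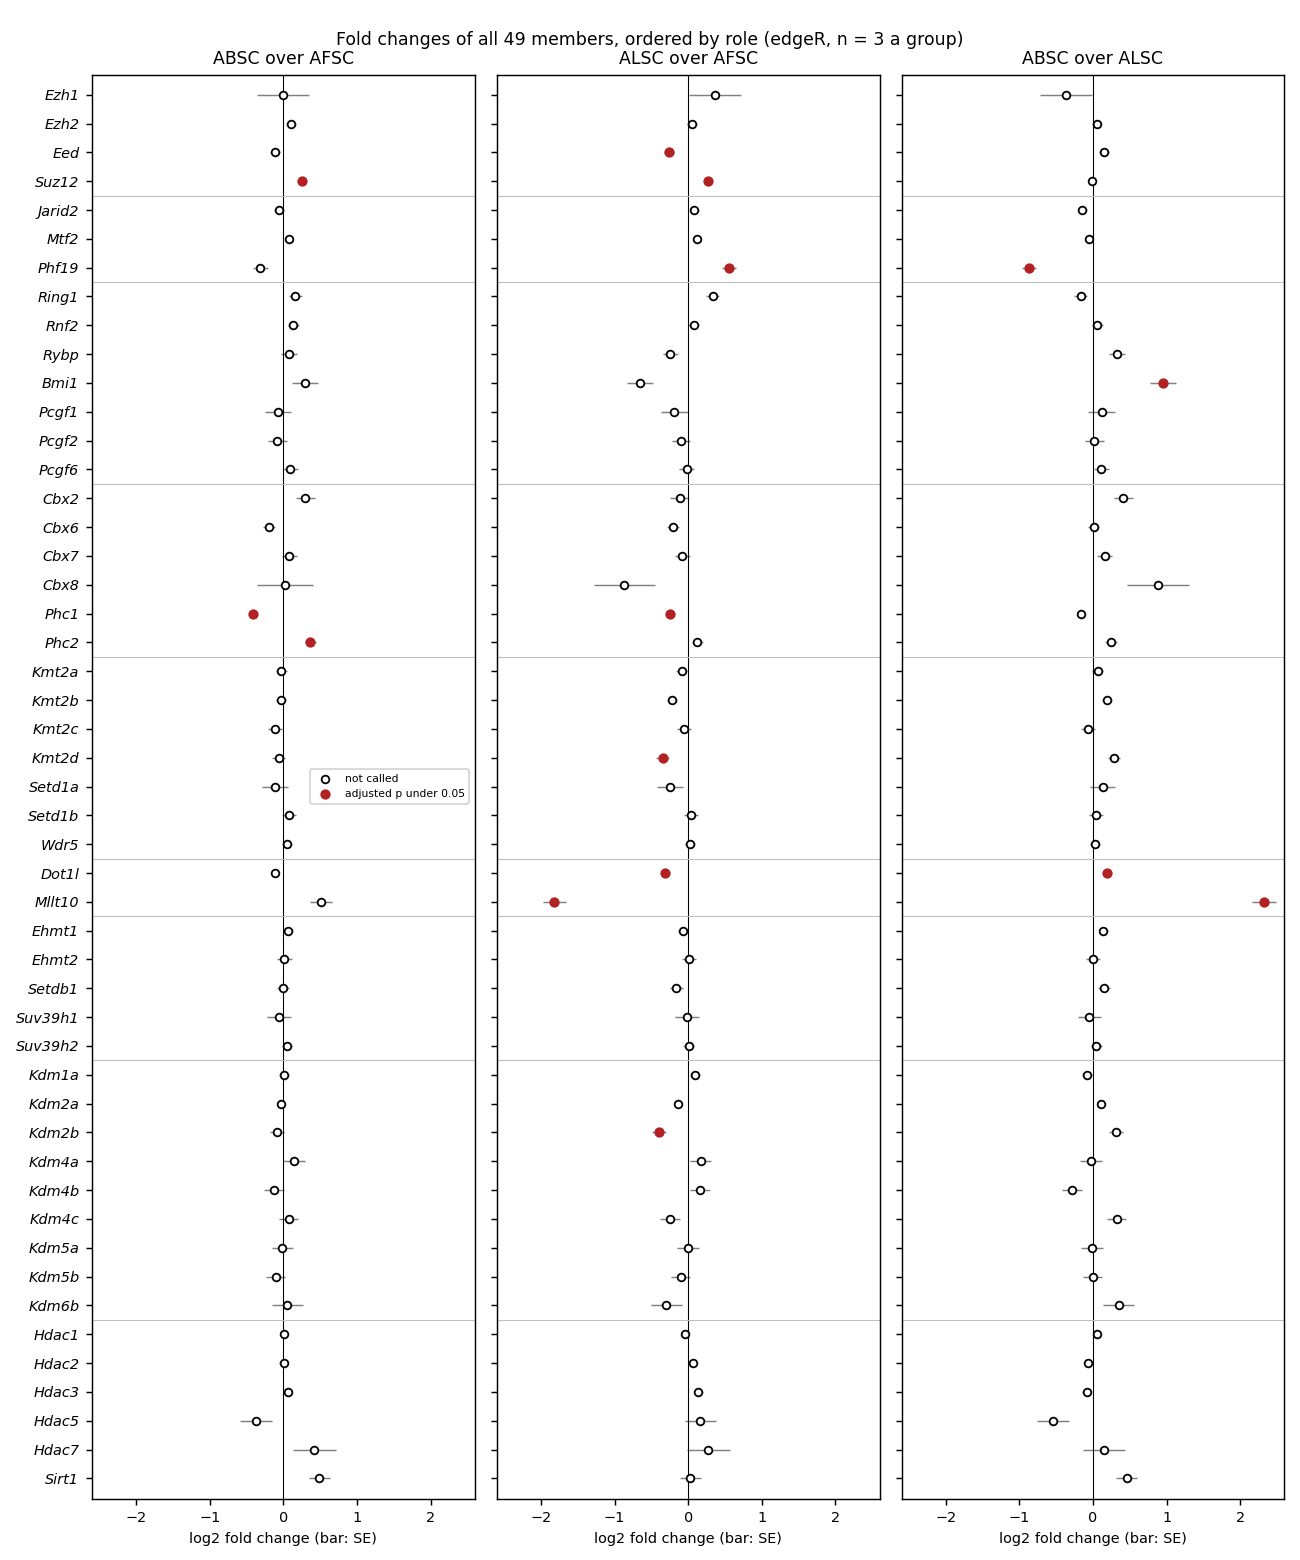
Log2 fold change of each of the 49 genes, ordered by role, in ABSC over AFSC, ALSC over AFSC and ABSC over ALSC, with bars for the SE and filled points where edgeR's adjusted p was under 0.05. Most points lie near 0, and Mllt10 lies at -1.82 in ALSC over AFSC and at 2.33 in ABSC over ALSC.

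The PRC2 core moved in 2 of its 4 genes in the unblocked test. Suz12, which holds the complex together, had 269, 265 and 255 CPM in ABSC, 267, 257 and 274 CPM in ALSC, and 216, 218 and 228 CPM in AFSC. Every ABSC and ALSC library lay above every AFSC library, and ABSC overlapped ALSC. Suz12 rose in ABSC against AFSC by a log2 fold change of 0.25 (SE 0.05, edgeR adjusted p = 0.0149), and in ALSC against AFSC by 0.27 (SE 0.05, edgeR adjusted p = 0.0144). The first call was lost without ABSC 2, AFSC 1 or AFSC 2, and the second without ALSC 3 or any 1 AFSC library, with adjusted p up to 0.0767 and 0.0861. Eed, the subunit that reads the methyl mark, had 116, 131 and 132 CPM in ABSC, 109, 115 and 118 CPM in ALSC, and 132, 137 and 141 CPM in AFSC. All ALSC libraries lay below all AFSC libraries. Eed fell in ALSC against AFSC with a log2 fold change of -0.26 (SE 0.07, edgeR adjusted p = 0.0433), a call that 8 of the 9 fits leaving out 1 library did not make (adjusted p 0.0189 to 0.178) and that was lost with no filter on low counts.

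The enzymes of PRC2 did not pass in the unblocked test. Ezh2 had 171, 197 and 187 CPM in ABSC, 175, 185 and 176 CPM in ALSC, and 165, 174 and 176 CPM in AFSC, with overlapping groups and adjusted p of 0.425 or more. Without the libraries numbered 1 it passed in ABSC against AFSC (log2 fold change 0.14, edgeR adjusted p = 0.0346). Ezh1 had 26.1, 12.7 and 12.1 CPM in ABSC, 32.7, 16.9 and 15.9 CPM in ALSC, and 21.6, 15.1 and 14.5 CPM in AFSC. In each cell type the highest Ezh1 value was that of the library numbered 1, and the groups overlapped. With the block the log2 fold change of Ezh1 in ABSC against ALSC was -0.37 (edgeR adjusted p = 0.0205, against 0.563 without it), and without the libraries numbered 1 it was -0.40 (adjusted p = 0.00434).

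Of the PRC2 accessory genes, Phf19, a Polycomb-like protein that links the complex to chromatin, changed and Jarid2 and Mtf2 did not pass the unblocked test. Phf19 had 18.8, 19.7 and 19.2 CPM in ABSC, 38.3, 36.0 and 31.1 CPM in ALSC, and 25.6, 23.4 and 22.8 CPM in AFSC. The 3 cell types did not overlap, with ALSC highest and ABSC lowest. Phf19 fell in ABSC against ALSC with a log2 fold change of -0.87 (SE 0.10, edgeR adjusted p = 0.000563), a call that all 9 fits leaving out 1 library made. It rose in ALSC against AFSC by 0.55 (SE 0.10, edgeR adjusted p = 0.0102), which was lost without AFSC 2 or AFSC 3 (adjusted p up to 0.0628). In ABSC against AFSC its log2 fold change was -0.32 (edgeR adjusted p = 0.0941), and with the block the adjusted p was 0.0174. Jarid2, a cofactor that recruits PRC2 in pluripotent cells, had 213, 236 and 226 CPM in ABSC, 231, 256 and 259 CPM in ALSC, and 225, 235 and 243 CPM in AFSC. Its groups overlapped and no comparison passed, and with the block it fell in ABSC against ALSC with a log2 fold change of -0.14 (edgeR adjusted p = 0.0312). Mtf2, another Polycomb-like protein, ranged from 124 to 138 CPM and passed with neither fit.

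In the ring and Pcgf genes of PRC1, 1 of 7 changed in the unblocked test. Bmi1, a ring partner found in canonical PRC1, had 9.08, 7.63 and 7.63 CPM in ABSC, 4.73, 3.65 and 4.17 CPM in ALSC, and 6.43, 5.66 and 7.74 CPM in AFSC. ALSC lay below both other cell types in every library, and ABSC overlapped AFSC. Bmi1 rose in ABSC against ALSC by a log2 fold change of 0.95 (SE 0.18, edgeR adjusted p = 0.00751), which all 9 fits leaving out 1 library kept. In ALSC against AFSC the log2 fold change was -0.66 (SE 0.18, edgeR adjusted p = 0.0536), and with the block the adjusted p was 0.00682. These levels rest on 70 to 185 counts per library. Rnf2, the main catalytic ring protein, had 95.2, 105 and 107 CPM in ABSC, 90.3, 104 and 101 CPM in ALSC, and 90.0, 93.8 and 95.8 CPM in AFSC, with adjusted p of 0.343 or more (0.0099 in ABSC against AFSC without the libraries numbered 1). The other 5 genes, Ring1, Rybp, Pcgf1, Pcgf2 and Pcgf6, ranged from 7.61 CPM (Pcgf1) to 144 CPM (Rybp) over the libraries. None of them passed in the unblocked test. With the block, Ring1 rose in ALSC against AFSC (adjusted p = 0.0147), and Rybp fell in ALSC against AFSC and rose in ABSC against ALSC (adjusted p = 0.00252 and 0.000202).

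In the polyhomeotic genes of PRC1, Phc1 and Phc2 moved in opposite directions in ABSC against AFSC. Phc1, whose protein joins PRC1 complexes into larger assemblies, had 444, 475 and 457 CPM in ABSC, 509, 536 and 497 CPM in ALSC, and 591, 633 and 607 CPM in AFSC. No 2 cell types overlapped, and AFSC was highest. Phc1 fell in ABSC against AFSC with a log2 fold change of -0.41 (SE 0.05, edgeR adjusted p = 0.00109), in all 9 fits leaving out 1 library. It fell in ALSC against AFSC with a log2 fold change of -0.25 (SE 0.05, edgeR adjusted p = 0.0208), a call lost without ALSC 3, AFSC 2 or AFSC 3 (adjusted p up to 0.111). Between ABSC and ALSC the log2 fold change was -0.17, with an edgeR adjusted p of 0.0716 and of 0.0105 with the block. Its relative Phc2 had 66.2, 79.8 and 77.4 CPM in ABSC, 59.9, 64.6 and 64.3 CPM in ALSC, and 57.0, 56.7 and 59.4 CPM in AFSC. Every ABSC library lay above every ALSC and AFSC library. Phc2 rose in ABSC against AFSC by a log2 fold change of 0.37 (SE 0.08, edgeR adjusted p = 0.0184), which 4 of 9 fits leaving out 1 library kept, all without an ALSC library or ABSC 1 (adjusted p up to 0.0926 in the others). In ABSC against ALSC it was at 0.24 (edgeR adjusted p = 0.0794, and 0.00822 with the block).

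None of the chromobox genes passed in the unblocked test. Cbx2, Cbx6 and Cbx7 ranged from 35.0 CPM (Cbx2) to 133 CPM (Cbx6), and Cbx8 from 0.254 to 0.704 CPM. Cbx2 had its highest value in each cell type in the library numbered 1, with log2 fold changes of 0.30 in ABSC against AFSC and 0.41 in ABSC against ALSC (edgeR adjusted p = 0.23 and 0.0701, and 0.00532 and 0.000351 with the block). With the block Cbx6 fell in both ABSC and ALSC against AFSC (adjusted p = 0.0275 and 0.0228), and Cbx7 rose in ABSC against ALSC (adjusted p = 0.0412). Cbx7 overlaps Apobec3, a cytidine deaminase gene, by 100 bases, and Apobec3 averaged 2.65, 13.9 and 0.874 CPM in ABSC, ALSC and AFSC. Reads of overlapping genes cannot be told apart in these unstranded libraries.

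**Figure D3:**
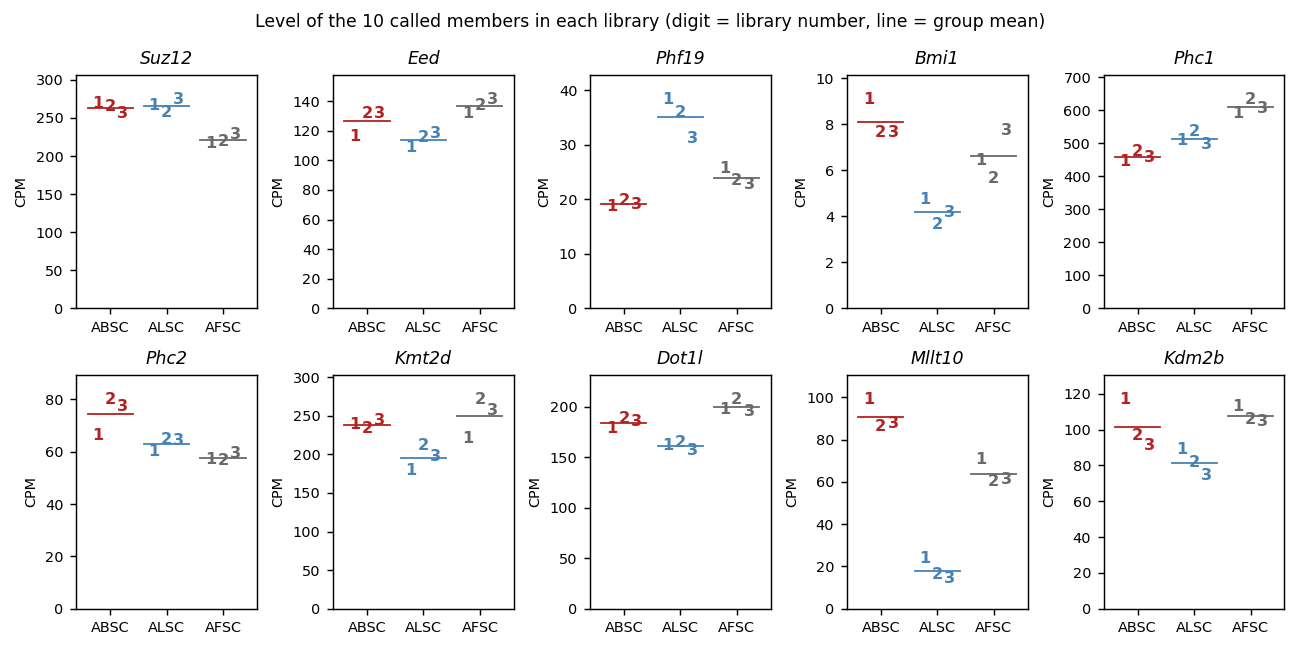
Level in CPM of the 10 genes called in at least 1 comparison, in ABSC, ALSC and AFSC. Each digit is 1 library, printed as its number, and each line is the group mean. Mllt10 in ALSC lies between 14.4 and 23.5 CPM, below every ABSC and AFSC library, and Suz12 in AFSC lies below every ABSC and ALSC library.

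Of the 7 genes listed for the lysine 4 methyltransferases, with their scaffold gene Wdr5 among them, Kmt2d alone changed in the unblocked test. Kmt2d, which encodes an enhancer methyltransferase, had 238, 233 and 244 CPM in ABSC, 179, 212 and 197 CPM in ALSC, and 220, 271 and 257 CPM in AFSC. Every ALSC library lay below every ABSC and AFSC library, and ABSC overlapped AFSC. It fell in ALSC against AFSC with a log2 fold change of -0.35 (SE 0.08, edgeR adjusted p = 0.0367), in 3 of 9 fits leaving out 1 library (adjusted p 0.0168 to 0.157), and the call was lost in a fit of the 2 groups alone. In ABSC against ALSC it stood at 0.28 (edgeR adjusted p = 0.0588, and 0.00204 with the block). Its relative Kmt2c, and Kmt2a, Setd1b and Wdr5, passed in no comparison with or without the block. Kmt2b fell with the block in ALSC against AFSC (log2 fold change -0.22, edgeR adjusted p = 0.00498) and rose in ABSC against ALSC (adjusted p = 0.0101). Setd1a fell with the block in ALSC against AFSC (log2 fold change -0.25, edgeR adjusted p = 0.00312). Together the 6 genes other than Kmt2d ranged from 36.5 CPM (Kmt2c) to 218 CPM (Wdr5).

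Both genes listed here for the H3 lysine 79 methyltransferase, Dot1l and its cofactor gene Mllt10, were lower in ALSC. Dot1l, the enzyme, had 178, 188 and 186 CPM in ABSC, 161, 165 and 157 CPM in ALSC, and 197, 207 and 196 CPM in AFSC. No cell types overlapped, with ALSC lowest and AFSC highest. Dot1l fell in ALSC against AFSC with a log2 fold change of -0.31 (SE 0.05, edgeR adjusted p = 0.00787), a call lost only without AFSC 2 (adjusted p = 0.0535). It rose in ABSC against ALSC by 0.19 (SE 0.05, edgeR adjusted p = 0.0425). That call was made in 1 of 9 fits leaving out 1 library and was lost with scaling by library size, with no filter on low counts and in a fit of the 2 groups alone.

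Mllt10 had 98.8, 86.3 and 87.5 CPM in ABSC, 23.5, 16.3 and 14.4 CPM in ALSC, and 70.4, 60.2 and 61.0 CPM in AFSC. The 3 cell types were fully apart, with ABSC highest and ALSC lowest. It fell in ALSC against AFSC with a log2 fold change of -1.82 (SE 0.16, edgeR adjusted p = 0.000242) and rose in ABSC against ALSC by 2.33 (SE 0.16, edgeR adjusted p = 2.21e-05), and both calls were made in all 9 fits leaving out 1 library. In ABSC against AFSC the log2 fold change was 0.51 (SE 0.15, edgeR adjusted p = 0.0722), and with the block the adjusted p was 0.000358. Among 5 other genes of the DOT1L and elongation complexes, Aff1 rose in ALSC against AFSC (log2 fold change 0.61, edgeR adjusted p = 0.00837) and Mllt1, Mllt3, Mllt6 and Aff4 did not pass.

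Mllt10 lies at chr2:18055237-18212388 on the plus strand in the coordinates of the count table, which match GRCm38. Its neighbours within 1 Mb were examined after its values were seen. The window holds 33 genes, of which 7 were tested, with Mllt10 among them. Mllt10 set the window, so its own fall is not counted here. Of the 2 tested genes upstream of it, A930004D18Rik fell in ALSC against AFSC, where 3.5% of all genes tested did. The other, Skida1, had 2, 0 and 4 counts in the ALSC libraries and passed the filter on low counts only through ABSC and AFSC. Its lower level in ALSC is described here and, like that of Mllt10, is not counted. Skida1, whose start lies 6186 bases from that of Mllt10 on the opposite strand, had 390 counts in the ABSC libraries, 6 in the ALSC libraries and 292 in the AFSC libraries. The ratio of counts in ALSC to those in AFSC was 0.0217 (95% exact interval 0.00789 to 0.0478, counting error only), and the adjusted p of edgeR's test was 0.000833. A930004D18Rik, whose start lies 17500 bases upstream, had 11.4, 11.6 and 10.1 CPM in ABSC, 0.642, 0.521 and 0.865 CPM in ALSC, and 8.90, 6.46 and 7.04 CPM in AFSC. It fell in ALSC against AFSC with a log2 fold change of -3.45 (edgeR adjusted p = 6.08e-05). ALSC was below both other cell types in every library for Mllt10, Skida1 and A930004D18Rik.

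None of the 4 tested genes downstream of Mllt10 fell in ALSC against AFSC in the unblocked test, and Bmi1 did with the block. Dnajc1, which encodes a chaperone partner and overlaps the 3′ end of Mllt10 by 16735 bases on the other strand, averaged 17.1, 16.2 and 17.2 CPM in ABSC, ALSC and AFSC, with a log2 fold change of -0.08 in ALSC against AFSC (edgeR adjusted p = 0.772). Commd3 stood at -0.00 (adjusted p = 0.99). Bmi1 lies 464630 bases beyond the end of Mllt10, and has the values given above. Pip4k2a, a lipid kinase gene, fell in ABSC against ALSC (log2 fold change -0.97, edgeR adjusted p = 0.0435), a call made in 2 of 9 fits leaving out 1 library and lost in a fit of the 2 groups alone. The first printed Mllt10 start is the 5′ end of Mllt10 in the count table, and the downstream one lies within its interval. The counts are per gene, so which start was used was not tested.

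**Figure D4:**
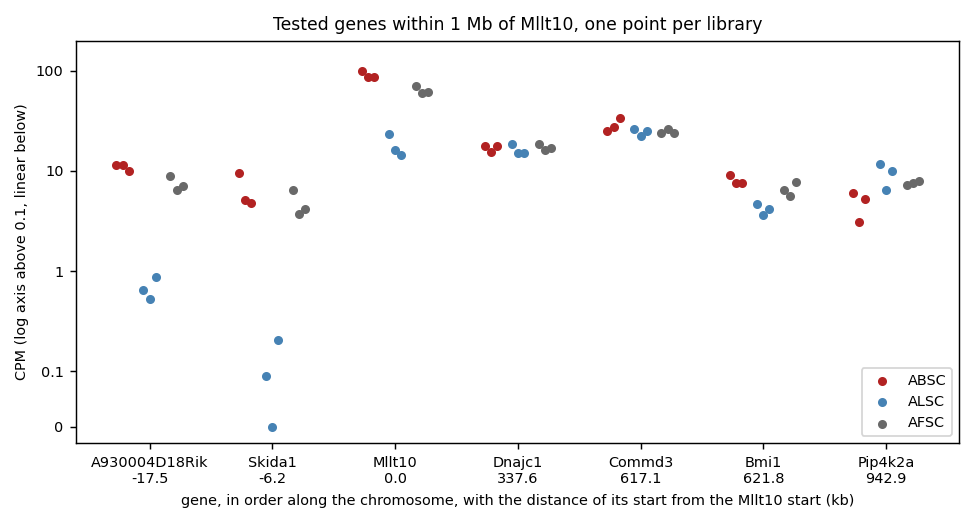
Level in CPM (log axis above 0.1, linear below) of the 7 tested genes within 1 Mb of Mllt10, in order along the chromosome with the distance of each start from that of Mllt10 in kb, with 1 point per library of ABSC, ALSC and AFSC. The ALSC points lie below all others for A930004D18Rik, Skida1, Mllt10 and Bmi1, and among the others for Dnajc1 and Commd3.

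None of the 5 H3 lysine 9 methyltransferase genes passed in the unblocked test. Ehmt1 and Ehmt2, partners in the enzyme of euchromatin, ranged from 137 to 163 CPM and from 145 to 181 CPM. Setdb1, which silences retroelements in embryonic stem cells, ranged from 120 to 158 CPM. The heterochromatin enzymes Suv39h1 and Suv39h2 ranged from 35.9 to 53.7 CPM and from 48.5 to 56.6 CPM. With the block, Setdb1 fell in ALSC against AFSC (adjusted p = 0.0331), and Setdb1 and Ehmt1 rose in ABSC against ALSC (adjusted p = 0.036 and 0.0431).

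Of the 9 demethylase genes, Kdm2b alone changed in the unblocked test. Kdm2b, a lysine 36 demethylase that recruits a variant PRC1 to CpG islands, had 117, 96.4 and 91.1 CPM in ABSC, 88.9, 81.8 and 74.2 CPM in ALSC, and 113, 105 and 105 CPM in AFSC. Every ALSC library lay below every ABSC and AFSC library. Kdm2b fell in ALSC against AFSC with a log2 fold change of -0.40 (SE 0.10, edgeR adjusted p = 0.0398), in 3 of 9 fits leaving out 1 library (adjusted p 0.00981 to 0.127), and the call was lost with scaling by library size. In ABSC against ALSC it stood at 0.31 (edgeR adjusted p = 0.0724, and 0.000966 with the block). Kdm1a, the lysine 4 demethylase LSD1, had 271, 241 and 230 CPM in ABSC, 264, 259 and 260 CPM in ALSC, and 257, 233 and 247 CPM in AFSC, with overlapping groups and adjusted p of 0.496 or more (0.0246 in ABSC against ALSC without the libraries numbered 1). The other 7, Kdm2a, Kdm4a, Kdm4b, Kdm4c, Kdm5a, Kdm5b and the lysine 27 demethylase Kdm6b, ranged from 35.1 CPM (Kdm4b) to 270 CPM (Kdm5b). With the block Kdm4c and Kdm6b fell in ALSC against AFSC (adjusted p = 0.00296 and 0.00165) and rose in ABSC against ALSC (adjusted p = 0.000296 and 0.000448), and Kdm4b fell in ABSC against ALSC (adjusted p = 0.00427). Kdm6b was highest in the library numbered 1 of each cell type, at 137, 109 and 126 CPM in ABSC, ALSC and AFSC, against 64.8 to 97.3 CPM in the other libraries.

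No deacetylase passed in the unblocked test. Hdac1 had 376, 382 and 376 CPM in ABSC, 368, 366 and 357 CPM in ALSC, and 392, 375 and 358 CPM in AFSC, with overlapping groups and adjusted p of 0.545 or more. Hdac2 and Hdac3, the other class I enzymes listed, ranged from 202 to 238 CPM and from 94.6 to 110 CPM. The class II genes Hdac5 and Hdac7 ranged from 35.8 to 82.2 CPM and from 9.34 to 20.5 CPM, with the highest value of each cell type in the library numbered 1. Sirt1, an NAD-dependent deacetylase, had 112, 150 and 151 CPM in ABSC, 82.4, 108 and 110 CPM in ALSC, and 85.7, 106 and 103 CPM in AFSC. All ABSC libraries lay above all ALSC and AFSC libraries, and in each cell type the library numbered 1 was lowest. The log2 fold change of Sirt1 was 0.49 in ABSC against AFSC and 0.46 in ABSC against ALSC (edgeR adjusted p = 0.0716 and 0.0683). With the block the adjusted p-values were 8.78e-06 and 1.17e-05. Hdac5 fell with the block in ABSC against AFSC and against ALSC (adjusted p = 0.00371 and 0.000323).

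The same complexes and families have 114 other genes on the list used here, of which 109 were tested. In ABSC against AFSC 7 of the 109 changed (2 up, 5 down), 6.42% against 7.98% of all genes, and 20 with the block, 18.3% against 19.4%. Sizes below are log2 fold changes. Pcgf5, a partner in variant PRC1, rose by a log2 fold change of 1.20 (edgeR adjusted p = 0.000444), with 19.6, 19.6 and 23.7 CPM in ABSC against 9.01, 8.21 and 10.1 CPM in AFSC. Of the class IIa deacetylase genes, Hdac4 rose by 0.56 (adjusted p = 0.00142). Hdac9, at 0.883 to 2.11 CPM, fell by 0.99 (adjusted p = 0.0218, in 3 of 9 fits leaving out 1 library, and lost with no filter on low counts). Hdac5 and Hdac7, of the same class, did not pass in the unblocked test. Phf1, a relative of Phf19, fell by 0.51 (adjusted p = 0.0334, in 2 of 9 fits, and lost in a fit of the 2 groups alone). In ALSC against AFSC 9 changed (3 up, 6 down), 8.26% against 7.04% of all genes, and 22 with the block, 20.2% against 22.2%. Phf1 fell by 0.67 (edgeR adjusted p = 0.013, in 7 of 9 fits), with 12.9, 14.2 and 13.0 CPM in ALSC against 21.2, 23.1 and 19.5 CPM in AFSC, opposite in sign to Phf19. Pcgf3 fell by 0.35 (adjusted p = 0.0061), and Aff1 and Hdac4 rose by 0.61 and 0.35 (adjusted p = 0.00837 and 0.0214, with Hdac4 in 4 of 9 fits). In ABSC against ALSC 10 changed (6 up, 4 down), 9.17% against 11.0% of all genes, and 30 with the block, 27.5% against 28.5%. Pcgf5 rose by 0.82 (edgeR adjusted p = 0.00316) and Asxl3, a partner of the H2A deubiquitinase, by 0.72 (adjusted p = 0.0385, in 4 of 9 fits, and lost with scaling by library size and in a fit of the 2 groups alone). Aff1 and the cytoplasmic deacetylase gene Hdac6 fell by 0.81 and 0.57 (edgeR adjusted p = 0.00117 and 0.000816).

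Levels of markers of other cell types differed between the groups in which these genes differ. Summed markers of differentiated trophoblast were 189 to 254 CPM in ABSC, 4.22 to 10.8 CPM in ALSC and 4.29 to 9.32 CPM in AFSC, with Hand1 the main gene and Prl3d1, Prl3b1 and Tpbpa at 0 in every library. Summed endoderm markers were 1.28 to 1.93 CPM in ABSC, 22.4 to 32.5 CPM in ALSC and 17.8 to 23.9 CPM in AFSC, and summed mesoderm markers 74.5 to 156, 134 to 145 and 67.2 to 75.5 CPM, with T the main gene. Fibroblast markers summed to at most 17.7, 23.9 and 18.6 CPM and blood markers to at most 2.45 CPM in any library. Naive embryonic stem cell markers summed to 128 to 145 CPM in ABSC, 163 to 260 CPM in ALSC and 126 to 133 CPM in AFSC. Their part in the changes above was not tested.

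Of the 49 genes, 29 overlap another gene of the table and 19 overlap a tested gene. Of the called genes, Eed overlaps E230029C05Rik (0.526 to 0.693 CPM on average), Suz12 overlaps Gm26563 (2.51 to 2.89 CPM), Kdm2b overlaps Rnf34 (46.1 to 53.2 CPM) and A930024E05Rik (5.08 to 6.97 CPM), and Mllt10 overlaps Dnajc1. None of these 5 partners changed in any comparison in the unblocked test or with the block. Without the libraries numbered 1, Rnf34 passed in ALSC against AFSC (log2 fold change 0.33, edgeR adjusted p = 0.000493). It also passed there in ABSC against ALSC (log2 fold change -0.21, edgeR adjusted p = 0.0172). Tested partners of the other genes were Gm26625 (Ezh2), Tmed5 (Mtf2), Trmt1l and Gm36527 (Rnf2), Gm44045 and Gm18422 (Rybp), Apobec3 (Cbx7), Gm48314 and AC061963.1 (Kmt2a), 9430064I24Rik (Setd1a), Gm37139 and Gm38147 (Ehmt1), Cers2 (Setdb1), Gm14820 (Suv39h1), Dclre1c (Suv39h2), Luzp1 (Kdm1a), Ccdc77 (Kdm5a), Kdm6bos (Kdm6b) and Slc48a1 (Hdac7).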

How the data were processed

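Poly-T-selected RNA of 9 libraries (3 each of ABSC, ALSC and AFSC) was sequenced with an unstranded kit, per the labels' protocols. The authors deposited unnormalized counts of reads, with a gene length beside each gene. HISAT2 2.0.5 (alignment) and featureCounts 1.5.0-p3 (counting) are named in the submitters' processing notes. Those notes name mm9, but 98.33% of the gene IDs shared with a GRCm38 annotation (GENCODE M21) have its coordinates, so coordinates are read as GRCm38. The instrument is stated differently in the series record and the protocols. A further 346 loci without a gene ID (0.208% to 0.227% of counts) were left out.

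The counts went into edgeR 4.0.16 (R 4.3.3): filterByExpr (minimum count 10, minimum total 15), TMM scaling (factors 0.963 to 1.06), 1 robust quasi-likelihood fit of all 9 libraries without a block, and Benjamini-Hochberg adjustment over 16178 genes. The SE of a log2 fold change is its size over the square root of F. The biological coefficient of variation was 0.147. The code was tested on simulated counts. Shares per gene length were compared by exact permutation tests, and 1 further planned share is not reported here. Alternatives were a replicate block, other scalings, no filter, DESeq2 1.42.0, 2-group fits and leaving out each library. Leaving out all 3 libraries numbered 1 was chosen after seeing the data.

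The replicate numbers come from the labels, which do not say what they stand for. Deviations from the group means correlated at 0.464 to 0.554 between libraries numbered 1, 0.197 to 0.287 for number 2 and 0.224 to 0.356 for number 3. All exceed 0.1, the threshold for pairing, but numbers 2 and 3 also correlated with each other (0.221 to 0.273). Deviations from a group mean cancel within the group, so a number 1 that stands apart makes numbers 2 and 3 correlate. The values show that the libraries numbered 1 stood apart. They cannot show that libraries numbered 2, or those numbered 3, belong together. The numbers were used as a block in an alternative fit only.

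Per-library values are given for members called in any comparison and for 10 set genes whatever their result (Ezh1, Ezh2, Eed, Suz12, Jarid2, Rnf2, Bmi1, Kmt2d, Kdm1a and Hdac1). Sirt1 was added after its values were seen. Of other chromatin genes, up to 4 called genes per comparison with the largest changes at 1 CPM or more are named. The members and lists were chosen with earlier results of these data known.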

Additional observations from a re-analysis of the deposited data

How the results depend on the processing

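Counts of calls depended on how the libraries numbered 1 were treated. With the replicate block, calls among the 49 genes were 9 in ABSC against AFSC, 17 in ALSC against AFSC, 22 in ABSC against ALSC and 23 for any difference. Calls over all genes were 3132, 3590 and 4605 in the 3 comparisons, and over the other chromatin genes 20, 22 and 30. The block kept every call among the 49 genes and changed no other calls among them than those named in the report. Without the libraries numbered 1, the counts for the 49 genes were 14, 16, 22 and 28, for all genes 4622, 4122 and 5225, and for the other chromatin genes 37, 33 and 36. DESeq2 called 5 of the 49 genes in ABSC against AFSC and 8 in ABSC against ALSC. With no filter on low counts, 7 of the 49 were called in ABSC against ALSC, and a fit of those 2 groups alone called 1041 genes in all and 6 other chromatin genes. Leaving out 1 library at a time gave 1 to 5, 1 to 10, 3 to 8 and 5 to 13 calls among the 49 genes (in the order above), 667 to 1723, 345 to 1522 and 846 to 2337 over all genes, and 3 to 9, 2 to 10 and 6 to 13 over the other chromatin genes. In ALSC against AFSC the 1 call left without AFSC 2 was Mllt10. The cause of these moves was not tested. No called fold change changed sign under these alternatives among the 49 genes and 20 other named genes for which all were run. Scaling by library size alone raised the share of calls that were higher to 60.0% in ALSC against AFSC (50.3% with TMM) and lowered it to 35.1% in ABSC against ALSC (49.3%). It moved the median of all genes by at most 0.07 on the log2 scale. The differences between cell types in the 3 family shares, none of which passed its test, changed sign in 9 of the alternatives run. Leaving out 1 library at a time gave differences in the Ezh1 share between -2.73 and 0.607 percentage points in ABSC against AFSC, -0.666 and 2.79 in ALSC against AFSC, and -4.35 and 0.118 in ABSC against ALSC. The Suv39h1 share differed by between -3.66 and 0.104, -2.08 and 1.31, and -3.47 and 0.685 points in ABSC against AFSC, ALSC against AFSC and ABSC against ALSC. Genes near the floor, such as Cbx8, cannot show small changes at this depth.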
